A study of Rattus norvegicus with 16 samples.

Results

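The genes described here encode subunits of the machinery of oxidative phosphorylation. They were chosen by name: every array probe whose RefSeq target maps to a subunit of respiratory complex I to V, or to cytochrome c, leaving out pseudogenes and the Ndufaf assembly factors, with the brightest probe taken for each gene. This gave 76 genes of the 13903 genes with a symbol on the array: 32 of complex I, 4 of complex II, 7 of complex III, 17 of complex IV, 15 of complex V and cytochrome c (Cycs). Of these, 74 were well above background on all 16 arrays and were tested. Uqcrq, a structural subunit of complex III, and Cox8c, a form of complex IV subunit VIII, were well above background on 1 of 16 arrays each and were not tested. A further 36 annotated rat genes that match the naming rule had no probe matched here and were not analysed here.

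Oxidative phosphorylation is carried out in the inner mitochondrial membrane. Complexes I and II pass electrons from NADH and succinate to ubiquinone, complex III passes them to cytochrome c and complex IV to oxygen, while complexes I, III and IV pump protons that drive the ATP synthase, complex V. Neurons depend heavily on this pathway for the ATP that ion pumping and synaptic transmission use. Some complex IV subunits come in isoforms, of which one is general and another is best known from muscle, testis or lung.

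RNA was from the hippocampus of male Sprague-Dawley rats. Control animals were unstressed, and the other animals went through 8 weeks of chronic mild stress, a sequence of mild stressors, and were labelled depression-susceptible, anxiety-susceptible or insusceptible. Each of the 4 groups had 4 one-colour Agilent arrays, and nothing in the sources used here says whether these hold RNA of 4 animals, how the stressed rats were sorted, or how old they were. Levels are log2 signal relative to the 75th percentile of the array, and differences are differences of these levels unless quantile normalization, which gives all arrays the same distribution, is named.

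The arrays lay on 4 slides. On each of slides 1 and 2 there were 2 arrays of control and 2 of depression-susceptible rats, while anxiety-susceptible rats had slide 3 and insusceptible rats slide 4 to themselves, so for the last 2 groups slide and group cannot be told apart. Per the file headers, slides 1 and 2 were scanned on day 1 and slides 3 and 4 on day 2. Every comparison of anxiety-susceptible or insusceptible rats with control is thus also a comparison of scan days. The 75th percentile of signal was between 2862.9 and 3348.4 on slides 1 and 2 and between 1083.2 and 1258.5 on slides 3 and 4. Arrays of a group on the same slide differed by 0.74 to 0.936 times the SD that repeated spots alone give, whereas a group's slides differed by 3.54 to 3.77 times that SD. Arrays of a group on a slide were therefore averaged into 1 sample, which left 2 control, 2 depression-susceptible, 1 anxiety-susceptible and 1 insusceptible sample; where a group has a pair of values they are given for slide 1 and then slide 2. The p-values of limma's moderated test rest on the spread between these slides, which may be technical, and assume the same spread for a group with 1 sample. Hippocampal neuron, astrocyte and oligodendrocyte markers were present, with summed levels over the 6 samples of 6.72 to 7.32, 7.54 to 8.23 and 7.76 to 8.47. Choroid plexus markers were also tested, 11 of them, and their summed level was 7.03 and 6.83 in control, 5.12 and 4.89 in the depression-susceptible samples, 7.0 in anxiety-susceptible and 3.64 in the insusceptible sample. The summed level of 7 red blood cell markers was 0.51 and 0.5 in control, 4.72 and 4.65 in the depression-susceptible samples, -0.04 in anxiety-susceptible and 1.36 in the insusceptible sample, while microglia markers ranged from 4.9 to 5.47 and endothelium markers from 2.65 to 3.12. In bulk tissue, fewer cells of a type and less RNA per cell cannot be told apart.

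The promoters of the isoform pairs on which the clearest differences turn are shown first, from RefSeq on build GRCr8, from 250 bases before to 50 bases after the gene start. Cox8b lies at chr1:205408224-205408523 and Cox8a at chr1:213833574-213833873, both on the minus strand, and Cox6b2 lies at chr1:78122621-78122920 on the plus strand and Cox6b1 at chr1:95009803-95010102 on the minus strand. Capitals mark the ETS-type motif CCGGAAG on either strand.
Cox8b: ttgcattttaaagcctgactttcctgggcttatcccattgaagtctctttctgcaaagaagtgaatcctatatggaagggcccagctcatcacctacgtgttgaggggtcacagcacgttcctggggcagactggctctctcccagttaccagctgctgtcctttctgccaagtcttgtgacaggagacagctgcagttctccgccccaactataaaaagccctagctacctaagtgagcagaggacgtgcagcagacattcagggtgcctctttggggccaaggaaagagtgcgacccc
Cox8a: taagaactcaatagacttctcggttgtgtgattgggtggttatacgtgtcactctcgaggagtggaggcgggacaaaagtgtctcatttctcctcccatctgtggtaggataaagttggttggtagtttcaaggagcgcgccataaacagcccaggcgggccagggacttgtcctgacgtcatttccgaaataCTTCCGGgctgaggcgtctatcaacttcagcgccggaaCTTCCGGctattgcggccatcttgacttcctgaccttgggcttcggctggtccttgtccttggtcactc
Cox6b2: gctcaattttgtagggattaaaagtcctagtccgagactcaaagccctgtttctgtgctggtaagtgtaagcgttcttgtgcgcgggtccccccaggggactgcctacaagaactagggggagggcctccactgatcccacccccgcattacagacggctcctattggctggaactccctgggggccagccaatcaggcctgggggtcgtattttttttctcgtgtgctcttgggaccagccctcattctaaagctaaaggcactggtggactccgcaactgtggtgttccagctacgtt
Cox6b1: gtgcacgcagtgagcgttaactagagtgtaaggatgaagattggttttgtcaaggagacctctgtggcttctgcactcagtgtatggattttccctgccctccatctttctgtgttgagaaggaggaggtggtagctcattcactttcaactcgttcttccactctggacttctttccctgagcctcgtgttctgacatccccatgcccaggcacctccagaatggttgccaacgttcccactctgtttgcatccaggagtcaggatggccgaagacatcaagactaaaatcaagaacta
The Cox8a promoter holds this motif and the other promoters shown do not. Over the 65 members with a promoter in the table, 29.2% held CCGGAAG on either strand, against 9.22% of 27457 promoters of the same length. For the palindromic NRF1 motif these shares were 6.15% and 0.932%, and for the YY1 motif they were 10.8% and 0.798%. Median GC content was 57.0% over the member promoters and 52.3% over all promoters, and its part in these shares was not tested. NRF1, ETS-family factors and YY1 are known regulators of nuclear genes for mitochondrial proteins, and a match of letters is a description, not a binding site. No Cox4i2 promoter was in the table.

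Most subunit genes had lower relative levels in every stressed group than in control when arrays were scaled to the 75th percentile, and the differences were smaller under quantile normalization. In depression-susceptible rats 72 of 74 members lay below control, with a median difference of -0.40, against a median of -0.06 over 11344 genes, of which 58.4% lay below control. In anxiety-susceptible rats 64 lay below control, beside 63.1% of all genes, with a median of -0.46 against -0.16. In insusceptible rats 62 did, beside 58.0%, with a median of -0.41 against -0.10. After quantile normalization 55, 43 and 39 of the 74 members lay below control, beside 53.6%, 57.8% and 54.3% of all genes. The medians over all 74 were then -0.12, -0.07 and -0.01, and those of all genes were -0.02, -0.08 and -0.05. With the 75th percentile scaling, the SD over slides of the members' median level was 0.0717. The median over members of slide 2 minus slide 1 was -0.21 in control and -0.14 in depression-susceptible rats. Under quantile normalization these were 0.006 and 0.032.

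Few of these differences passed the test in depression-susceptible rats. On simulated data the 6-sample fit called 0 of the 2-fold changes in this comparison. In the data the same fit called 3.54% of all genes lower and 4.77% higher, so the simulation does not measure the power there. A difference that did not pass in this comparison cannot be read as no change. With limma and Benjamini-Hochberg adjustment over all probes tested, 4 members fell in depression-susceptible rats, beside 3.54% of all genes called lower. In the same rats 1 rose, beside 4.77% called higher. In anxiety-susceptible rats 23 fell, beside 21.1% of all genes, and 2 rose, beside 8.98%. In insusceptible rats 17 fell, beside 17.6%, and 3 rose, beside 11.2%. Leaving out the slide 1 or slide 2 sample of control or of depression-susceptible in turn left 1 to 2, 3 to 4 and 2 to 5 members called. Taking the 16 arrays as separate samples gave 67 lower and 2 higher members in depression-susceptible rats, beside 32.7% and 18.6% of all genes. It gave 54 and 5 in anxiety-susceptible rats, beside 48.4% and 23.5%, and 54 and 6 in insusceptible rats, beside 44.4% and 28.4%. Under quantile normalization with 6 samples, 1 member fell and 0 rose in depression-susceptible rats, beside 4.25% and 4.65%, with 15 and 3 at an unadjusted p under 0.05. In anxiety-susceptible rats 9 fell and 9 rose, beside 19.3% and 10.5%, and in insusceptible rats 9 fell and 12 rose, beside 17.4% and 10.9%. Quantile normalization with 16 arrays, added after seeing the data, called 30 lower and 6 higher members in depression-susceptible rats, beside 23.2% and 21.0% of all genes. It called 31 and 23 in anxiety-susceptible rats, beside 41.5% and 28.1%, and 27 and 29 in insusceptible rats, beside 39.0% and 30.2%.

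Depression-susceptible and control arrays shared slides, so this comparison could be repeated within each. The members' median was -0.45 on slide 1 and -0.37 on slide 2, and -0.11 on both after quantile normalization. With slide as a block, which leaves 1 residual degree of freedom, 53 members fell and 2 rose, beside 22.1% and 14.4% of all genes. Where a depression-susceptible difference below is said not to pass, this is without the block. With it, limma called Ndufv2, Ndufa7, Ndufab1, Ndufb4, Ndufb8, Sdha, Sdhb, Uqcrb, Cycs, Cox8a, Cox6b2, Cox4i1, Cox7a2l, Atp5f1b and Atp5if1, in the direction of the difference given for each, but not Ndufs7 or Cox6b1. The control and depression-susceptible arrays held different positions on those slides, and the part of position was not tested.

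Most subunit genes are among the brightest on the array, with a median brightness at percentile 95.3 of the genes tested, and 51 of 74 were above percentile 90. Under percentile 60 there were 11, among them Cox8b, Ndufa7 and Ndufa4 (percentiles 29.8, 39.4 and 46.9). Difference moved with brightness over all genes. When the genes were split into 5 equal bins by brightness, the brightest bin held 62 members. There the median of all genes was -0.26, -0.42 and -0.41 in the order of groups above, while the members there had medians of -0.42, -0.46 and -0.44. In the dimmest bin the all-gene medians were 0.09, 0.12 and 0.29. After quantile normalization the brightest bin had all-gene medians of 0.00, 0.01 and 0.04 and member medians of -0.10, -0.04 and 0.03. The part of brightness in the members' differences was not tested.

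**Figure D1:**
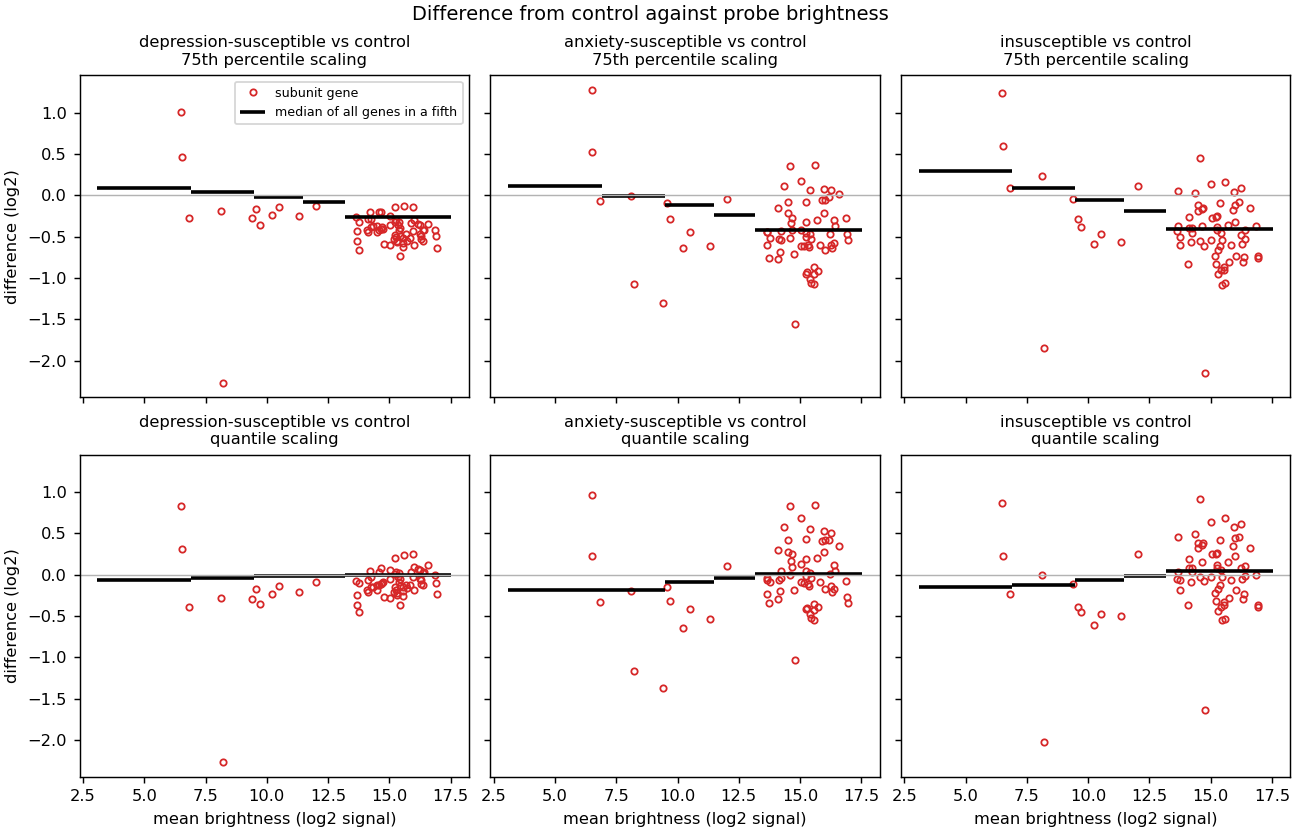
Difference from control (log2, vertical) against mean brightness of the probe (log2 signal, horizontal) for the 74 subunit genes (circles), in 3 comparisons and under both scalings; black lines are the medians of all genes in each of 5 bins of brightness. Scaled to the 75th percentile, the brightest bin of all genes lies below 0 (-0.26, -0.42 and -0.41), and under quantile normalization it lies near 0.

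Complex I, the NADH dehydrogenase, had 32 measured members. Their median difference was -0.36 in depression-susceptible rats, with 2 members that fell, -0.51 in anxiety-susceptible rats, with 13 that fell and 1 that rose, and -0.44 in insusceptible rats, with 7 that fell and 2 that rose; the shares of all genes called are those given above. Under quantile normalization 0 passed in depression-susceptible rats, and 3 fell and 4 rose in each of the other groups, so that more members were called higher than lower. The 7 core subunits, which carry the flavin and the iron-sulphur clusters, had medians of -0.28, -0.46 and -0.45, and -0.07, 0.02 and 0.06 under quantile normalization, so their direction turned with the scaling in the last 2 groups. The 25 accessory subunits had medians of -0.40, -0.51 and -0.43, and -0.13, -0.08 and -0.03 under quantile normalization. After quantile normalization the complex I medians were -0.12, -0.08 and -0.03.

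Ndufv2, a core subunit with an iron-sulphur cluster, had levels of 5.40 and 5.16 in the control samples, 4.77 and 4.54 in the depression-susceptible samples, 4.33 in anxiety-susceptible and 4.37 in the insusceptible sample. It fell by 0.95 ± 0.17 (SE) in anxiety-susceptible rats (limma adjusted p = 0.0277) and by 0.91 ± 0.17 in insusceptible rats (limma adjusted p = 0.0308), and both calls held under quantile normalization. In depression-susceptible rats its difference was -0.62 and did not pass (limma adjusted p = 0.0747). Ndufb3, an accessory subunit of the membrane arm, showed the same order, with 5.55 and 5.16 in control, 4.87 and 4.66 in the depression-susceptible samples, 4.28 in anxiety-susceptible and 4.29 in the insusceptible sample. It fell by 1.07 in anxiety-susceptible and by 1.06 in insusceptible rats, calls that also held under quantile normalization.

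Ndufa7, an accessory subunit whose probe is at percentile 39.4 of brightness, stood apart in anxiety-susceptible rats. Its 4 arrays there lay between -2.42 and -2.39, below all other arrays, which lay between -1.58 and -0.92. It fell by 1.30 ± 0.17 (SE) against control (limma adjusted p = 0.0170) and by 1.37 under quantile normalization. The differences in depression-susceptible and insusceptible rats were -0.28 and -0.05 and did not pass. Depression-susceptible minus anxiety-susceptible was 1.02 (limma adjusted p = 0.0595), and 1.08 under quantile normalization, where it passed (limma adjusted p = 0.0383). Anxiety-susceptible minus insusceptible was -1.25 (limma adjusted p = 0.179), and -1.26 under quantile normalization (limma adjusted p = 0.106), and passed under neither.

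Ndufs7, a core subunit that passes electrons towards ubiquinone, moved the other way from most of the complex. Levels were between 3.47 and 3.60 on the control arrays, 3.29 and 3.40 in the depression-susceptible samples, 3.83 and 3.94 in anxiety-susceptible and 3.94 and 4.02 in insusceptible rats, and only the last pair of groups overlapped, by less than their spread. It rose by 0.45 ± 0.09 (SE) in insusceptible rats (limma adjusted p = 0.0345), and the rise was 0.91 under quantile normalization. In anxiety-susceptible rats the difference of 0.35 did not pass (limma adjusted p = 0.0520), and under quantile normalization it was 0.84 and passed. In depression-susceptible rats it was -0.20 and turned to 0.03 under quantile normalization, passing under neither.

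Ndufab1, the mitochondrial acyl carrier protein that is also a complex I subunit, had the largest positive differences, at a dim probe. Control arrays lay at -4.34, -5.65, -5.56 and -5.56, so that 1 control array stood apart from the rest at the level of the depression-susceptible arrays, which lay between -4.36 and -4.08. Anxiety-susceptible arrays lay between -4.08 and -3.95 and insusceptible arrays between -4.17 and -3.96. It rose by 1.28 ± 0.27 (SE) in anxiety-susceptible (limma adjusted p = 0.0372) and by 1.25 ± 0.27 in insusceptible rats (limma adjusted p = 0.0396), but neither passed under quantile normalization (0.96 and 0.86). Without the control array that stood apart the differences were 1.33, 1.60 and 1.58 in the same order of groups, an alternative chosen after seeing the data.

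Ndufa10 and Ndufa11, further accessory subunits, fell in depression-susceptible rats by 0.55 and 0.59 (limma adjusted p = 0.0329 and 0.0421), and neither call held under quantile normalization (-0.37 and -0.28). Ndufa10 was at 2.98 and 3.0 in control, 2.4 and 2.49 in the depression-susceptible samples, 2.54 in anxiety-susceptible and 3.04 in the insusceptible sample. The brightest complex I members, Ndufb4 and Ndufb8, had differences of -0.52 and -0.55 in depression-susceptible rats that did not pass. Ndufb8 fell by 0.91 and 0.81 in anxiety-susceptible and insusceptible rats, and these were -0.39 and -0.28 under quantile normalization, where they did not pass.

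Complex II, succinate dehydrogenase, which also serves the citric acid cycle, had medians over its 4 subunits of -0.40, -0.60 and -0.61, and of -0.14, -0.12 and -0.14 under quantile normalization. Sdhb, the iron-sulphur subunit, was at 3.77 and 3.61 in control, 3.31 and 3.22 in the depression-susceptible samples, 2.92 in anxiety-susceptible and 2.86 in the insusceptible sample. It fell in anxiety-susceptible rats by 0.77 (limma adjusted p = 0.0223) and in insusceptible rats by 0.83 (limma adjusted p = 0.0199), of which the second held under quantile normalization. Sdha, the flavoprotein, had differences of -0.49, -1.01 and -0.91 that did not pass, and its 2 probes gave nearly the same values (-1.01 at both in anxiety-susceptible rats).

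Complex III, the cytochrome bc1 complex, had medians over 6 tested subunits of -0.38, -0.49 and -0.55, and of -0.03, -0.07 and -0.05 under quantile normalization. Uqcrb, a small subunit near the ubiquinone site, was at 0.76 and 0.80 in control, 0.55 and 0.51 in the depression-susceptible samples, 0.17 in anxiety-susceptible and 0.22 in the insusceptible sample. It fell by 0.61 and 0.56 in the last 2 groups (limma adjusted p = 0.0211 and 0.0250), and both calls held under quantile normalization (-0.53 and -0.50). Uqcrfs1, the Rieske iron-sulphur protein, fell by 0.95 and 0.84, and only the anxiety-susceptible call held. Uqcrc2, a core protein, and Uqcrh, the hinge protein, were close to control with the 75th percentile scaling (0.08 and 0.07 in anxiety-susceptible, 0.05 and 0.09 in insusceptible rats), and rose only under quantile normalization, by 0.53 and 0.50 and by 0.57 and 0.61.

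Cycs, the electron carrier between complexes III and IV, had differences of -0.29, -0.46 and -0.38 with no call, and 0.03, 0.05 and 0.12 under quantile normalization, so its direction turned with the scaling.

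**Figure D2:**
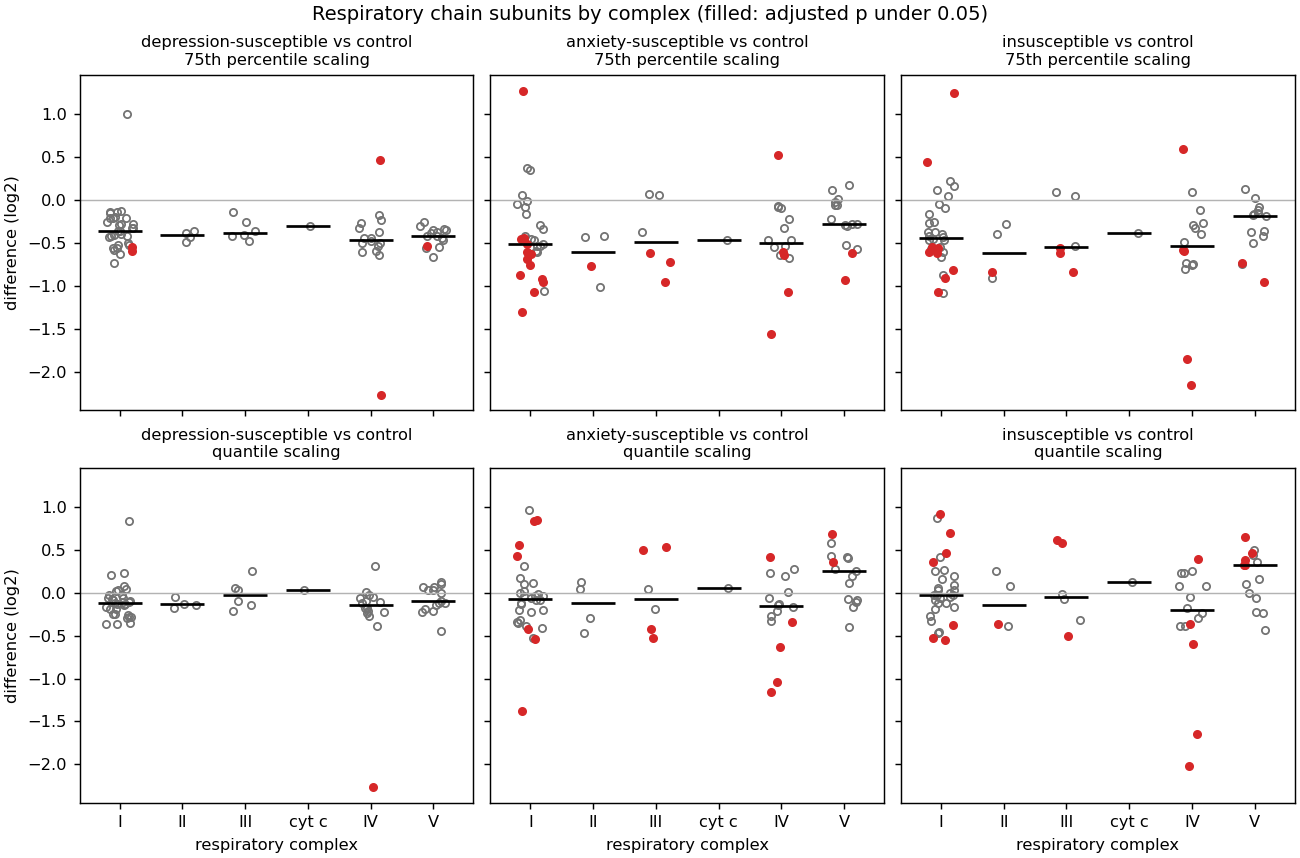
Difference from control (log2, vertical) of each of the 74 subunit genes by respiratory complex (horizontal), for the 3 stressed groups, scaled to the 75th percentile (top) and quantile-normalized (bottom); points are genes, filled where limma's adjusted p was under 0.05, and bars are medians. Complex medians lie between -0.61 and -0.18 in the top row and between -0.21 and 0.32 in the bottom row, and Cox8b is the lowest point in depression-susceptible rats under both scalings at -2.27.

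Complex IV, cytochrome c oxidase, held the largest falls with the 75th percentile scaling, and these were in subunit isoforms. Its 16 tested members had medians of -0.46, -0.50 and -0.53, and -0.15, -0.16 and -0.21 under quantile normalization. Cox8b, the subunit VIII isoform best known from muscle, fell in every stressed group. Its control arrays lay between -1.46 and -1.32, its anxiety-susceptible arrays between -2.52 and -2.38, its insusceptible arrays between -3.32 and -3.13, and its depression-susceptible arrays between -3.79 and -3.57. No 2 groups overlapped. It fell by 2.27 ± 0.09 (SE) in depression-susceptible rats, to 0.208 times control (limma adjusted p = 0.00287), by 1.07 ± 0.11 in anxiety-susceptible rats (limma adjusted p = 0.0129) and it fell by 1.85 ± 0.11 in insusceptible rats (limma adjusted p = 0.00637). Within slides 1 and 2 the depression-susceptible difference was -2.26 and -2.27.

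Cox8b was the only named member called in all 3 groups under every alternative and with every sample left out in turn. Under quantile normalization its differences were -2.27, -1.16 and -2.02. The Cox8b probe is dim, at percentile 29.8 of brightness, against 99.7 for Cox8a. The choroid plexus markers moved in the same direction: 11 of 11 fell in depression-susceptible rats (median -4.19), 10 of 11 in anxiety-susceptible rats (median -2.06) and 11 of 11 in insusceptible rats (median -4.14). Ttr, the most abundant of these markers in that tissue, differed by -1.5, 0.48 and -2.93, and its 0.48 did not pass; under quantile normalization it rose in anxiety-susceptible rats, by 0.53 (limma adjusted p = 0.0189), against the direction of the other markers and of Cox8b. The part of choroid plexus tissue in the Cox8b difference was not tested. Cox8a, the general isoform, had differences of -0.49, -0.46 and -0.75 that did not pass.

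Cox6b2, the subunit VIb isoform best known from testis, fell in anxiety-susceptible and insusceptible rats. Its control arrays lay at 5.23 and 5.19 on slide 1 and 4.75 and 4.64 on slide 2, its depression-susceptible arrays between 3.93 and 4.74, its anxiety-susceptible arrays between 3.36 and 3.45 and its insusceptible arrays between 2.70 and 2.89. It fell by 1.55 ± 0.37 (SE) in anxiety-susceptible rats (limma adjusted p = 0.0468) and by 2.15 ± 0.37 in insusceptible rats (limma adjusted p = 0.0270), and the differences were -1.04 and -1.64 under quantile normalization, where both passed. In depression-susceptible rats -0.59 did not pass (limma adjusted p = 0.278). There the slide 1 arrays overlapped with the slide 2 arrays of control, but within a slide they did not: the difference was -0.52 on slide 1 and -0.66 on slide 2, and it passed with slide as a block (limma adjusted p = 0.0131). After quantile normalization the within-slide differences were -0.14 and -0.40. Cox6b1, the general isoform, had differences of -0.17, -0.09 and -0.29 that did not pass. The Cox6b1 probe was dim, at -1.01 and -1.37 in control and percentile 40.9 of brightness, against percentile 93.3 for Cox6b2. Here the probe of the general isoform was thus the dimmer of the pair, and how specific either probe is was not tested.

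Cox4i2, the subunit IV isoform best known from lung and induced by low oxygen, rose in all 3 groups with the 75th percentile scaling. Control arrays lay between -4.83 and -4.68 and all others between -4.42 and -4.11, so that control did not overlap with the stressed arrays. It rose by 0.47 ± 0.07, 0.52 ± 0.09 and 0.60 ± 0.09 (SE; limma adjusted p = 0.0396, 0.0263 and 0.0222), and by 0.31, 0.23 and 0.22 under quantile normalization, where none of the 3 passed. Its probe is dim, at percentile 17.4 of brightness. Cox4i1, the general isoform, had differences of -0.44, -0.53 and -0.39 that did not pass.

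**Figure D3:**
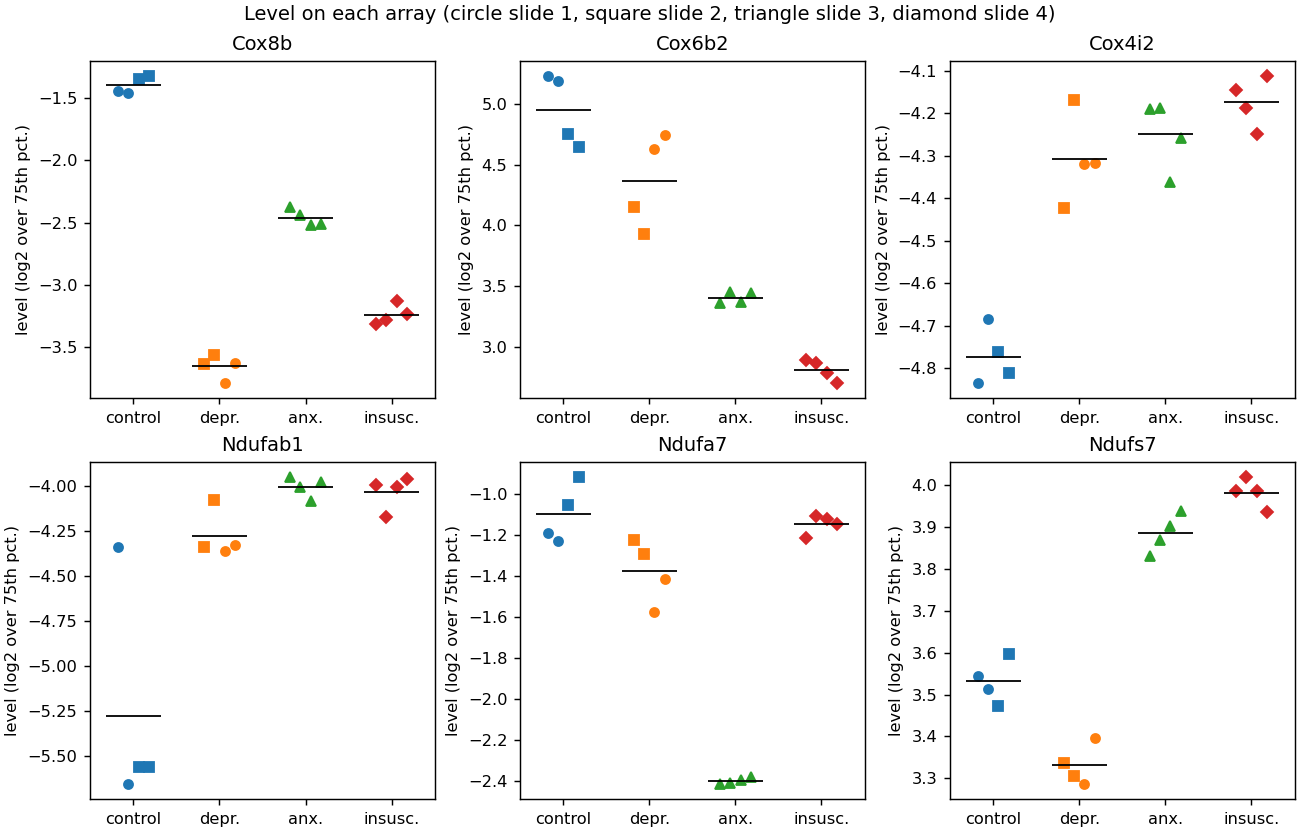
Level on each of the 16 arrays (log2 relative to the array's 75th percentile, vertical) of 6 subunit genes in the 4 groups (horizontal); symbols give the slide and bars the mean of the group's arrays. Cox8b arrays of the groups do not overlap, Ndufa7 is low only on the anxiety-susceptible arrays (-2.42 to -2.39), and 1 control array of Ndufab1 (-4.34) lies apart from the rest of its group.

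Ndufa4, now counted as a complex IV subunit, fell in anxiety-susceptible rats by 0.64 and in insusceptible rats by 0.58 (limma adjusted p = 0.0212 and 0.0250), and these calls held under quantile normalization. It was at -0.27 and -0.34 in control, -0.55 and -0.52 in the depression-susceptible samples, -0.94 in anxiety-susceptible and -0.89 in the insusceptible sample. Cox7a2l, which helps join complexes III and IV into supercomplexes, differed by -0.37, -0.08 and -0.11 with no call, and turned to 0.42 and 0.39, which passed, under quantile normalization in the last 2 groups. Cox7a2 fell by 0.60 and 0.59 in those groups, and neither call held.

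Complex V, the ATP synthase, had medians over its 15 members of -0.42, -0.28 and -0.18, and of -0.10, 0.25 and 0.32 under quantile normalization, so in anxiety-susceptible and insusceptible rats its direction turned with the scaling. The 5 subunits of the F1 catalytic head had medians of -0.37, -0.05 and -0.15, and the 9 of the Fo motor and stalk had medians of -0.42, -0.28 and -0.18. Atp5mc1, which encodes the c subunit of the rotor ring, was at 4.80 and 4.68 in control, 4.26 and 4.16 in the depression-susceptible samples, 4.13 in anxiety-susceptible and 4.01 in the insusceptible sample. It fell by 0.53, 0.61 and 0.73 (limma adjusted p = 0.0476, 0.0291 and 0.0227), and none of these held under quantile normalization (-0.21, -0.10 and -0.23). Atp5mc2, another gene for the same c subunit, fell by 0.93 and 0.95 in anxiety-susceptible and insusceptible rats and was not called under quantile normalization. Under quantile normalization 0 members of the complex were called lower in any group, though 9, 5 and 4 of the 15 had differences below 0. Atp5f1a, the alpha subunit, and Atp5pb, a stalk subunit, were called higher in anxiety-susceptible rats (0.35 and 0.69), beside 10.5% of all genes. In insusceptible rats Atp5f1a, Atp5mg, Atp5mk, Atp5pb and Atp5po were called higher, by between 0.32 and 0.64, beside 10.9%. Atp5f1b, the catalytic beta subunit, had differences of -0.42, -0.28 and -0.37 with no call. Atp5if1, the inhibitor of the synthase, had differences of -0.47, -0.29 and -0.36 with no call, which turned to 0.20 and 0.16 in the last 2 groups under quantile normalization.

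Calls that stood under both scalings, in the 6-sample and the 16-array fit, were 1 member in depression-susceptible rats (Cox8b, beside 2.85% of all genes called lower in this way), 8 lower members in anxiety-susceptible rats (Cox6b2, Cox8b, Ndufa4, Ndufa7, Ndufb3, Ndufv2, Uqcrb and Uqcrfs1, beside 14.3%), and in insusceptible rats 7 lower (Cox6b2, Cox8b, Ndufa4, Ndufb3, Ndufv2, Sdhb and Uqcrb, beside 11.6%) and 1 higher (Ndufs7, beside 6.78%). These 3 comparisons share their control samples.

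Between stressed groups, no member passed with 6 samples. There limma called 0 members between depression-susceptible and insusceptible rats, beside 0.00882% of all genes called lower and 0.0793% higher. It called 0 between anxiety-susceptible and insusceptible rats, beside 0.0176% and 0.097%, and 0 between depression-susceptible and anxiety-susceptible rats, beside 0.167% and 0.22%. At an unadjusted p under 0.05 there were 5 lower and 4 higher, 2 lower and 1 higher, and 5 lower and 9 higher members, and with 16 arrays as separate samples limma called 16 lower and 22 higher, 6 and 5, and 15 and 22, beside 24.7% and 36.4%, 23.2% and 11.5%, and 20.4% and 42.0% of all genes. The members' medians were 0.01, 0.00 and 0.01. Under quantile normalization 3 members were called between depression-susceptible and insusceptible rats, all lower, namely Atp5pb (-0.58), Ndufa10 (-0.83) and Ndufs7 (-0.88), beside 0.978% of all genes lower and 3.88% higher. It called 0 between anxiety-susceptible and insusceptible rats, beside 0.132% and 0.309%, with 2 lower and 1 higher at an unadjusted p under 0.05. Between depression-susceptible and anxiety-susceptible rats 6 were lower and 1 higher, beside 2.93% and 7.4%, among them Cox8b (-1.11) and Ndufa7 (1.08). Quantile normalization with 16 arrays called 33 lower and 17 higher, 11 and 7, and 30 and 18 members in these 3 comparisons, beside 26.6% and 35.6%, 21.5% and 16.3%, and 25.2% and 37.2% of all genes.

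Other genes of the mitochondrion were read from lists chosen with earlier results known. The shares of all genes called lower in depression-susceptible, anxiety-susceptible and insusceptible rats were 3.54%, 21.1% and 17.6%, and those called higher 4.77%, 8.98% and 11.2%. Under quantile normalization the shares were 4.25%, 19.3% and 17.4% lower and 4.65%, 10.5% and 10.9% higher. The counts below are to be read beside the share of the same scaling and direction. Of 17 citric acid cycle genes, 0 passed in depression-susceptible rats, 5 fell in anxiety-susceptible and 3 in insusceptible rats. Under quantile normalization these were 3 lower and 1 higher, and 2 lower and 2 higher, and the list's medians turned from -0.41 and -0.21 to 0.07 and 0.03. Suclg1, a subunit of succinyl-CoA ligase, fell by 1.03 and 1.1, and Cs, citrate synthase, by 0.80 in anxiety-susceptible rats. Of 28 assembly factors of the complexes, 0 passed in depression-susceptible rats, 5 fell and 1 rose in anxiety-susceptible rats, and 4 fell and 1 rose in insusceptible rats. The quantile counts were 1 lower, then 7 lower and 1 higher, then 5 lower and 1 higher. Ndufaf4, a complex I assembly factor, fell by 0.78 and 0.88, and only the second call held under quantile normalization.

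Of 19 regulators of mitochondrial biogenesis, 1 fell in depression-susceptible rats, and 4 fell and 1 rose in each of the other groups. The quantile counts were 2 lower, then 2 lower and 1 higher, then 3 lower and 2 higher. Ppargc1a, the coactivator PGC-1alpha, fell in all 3 groups, by 0.80, 1.19 and 1.19 (limma adjusted p = 0.0128, 0.00877 and 0.00877), and the differences were -0.95, -1.49 and -1.64 under quantile normalization. Tfam, the mitochondrial transcription factor, fell by 0.52 and 0.45 in anxiety-susceptible and insusceptible rats, but not under quantile normalization. Nrf1 had differences of -0.09, -0.01 and -0.32 with no call, and under quantile normalization it fell by 0.54 in insusceptible rats (limma adjusted p = 0.0245).

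Of 21 genes of the import machinery, 1 fell and 1 rose in depression-susceptible rats, 11 fell and 1 rose in anxiety-susceptible rats, and 9 fell and 1 rose in insusceptible rats. Under quantile normalization 1, 5 and 5 were called lower and 0 higher. Tomm70, an import receptor of the outer membrane, fell by 0.64, 1.43 and 1.16, and these calls held under quantile normalization. Of 10 carriers for nucleotides, phosphate and pyruvate and related channels, 0 passed in depression-susceptible rats and 2 fell in each of the other groups: Mpc2, a subunit of the pyruvate carrier (-1.52 and -1.55), and Vdac3, an outer membrane channel (-0.85 in both). Under quantile normalization Vdac3 lost its call in insusceptible rats (limma adjusted p = 0.0632), and Slc25a4, an ADP/ATP carrier, rose in both groups, by 0.71 and 0.63. The quantile counts were 3 lower and 1 higher in anxiety-susceptible rats and 1 lower and 1 higher in insusceptible rats. Neuron markers had medians over 10 genes of -0.21, -0.70 and -0.57 in the 3 stressed groups. Under quantile normalization these medians were -0.08, -0.38 and -0.22. Calls were then 4 lower and 2 higher in anxiety-susceptible and 4 and 3 in insusceptible rats. Without that scaling, microglia medians were -0.39, -0.60 and -0.43, oligodendrocyte medians -0.25, -0.32 and -0.17 and astrocyte medians -0.33, -0.11 and -0.125. Endothelium medians were 0.06, -0.09 and 0.225. With it, oligodendrocyte and astrocyte medians were positive and microglia medians negative. The part of cell types in these differences was not tested.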

How the data were processed

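Per the file headers, the deposited spot intensity values came from Agilent Feature Extraction 11.0.1.1 on array design 026403, with background subtracted; nothing was done between arrays. Per the labels, messenger RNA was purified and labelled with Cy3 by random priming. The series also has a deposited table of log2 values, which were quantile-like when set against the scanner values (correlation of deviations 0.986 to 0.997); scale and centring are known only from that match, and it served as an alternative. Gene symbols came from matching RefSeq names to a RefSeq gene table of assembly GRCr8: 14274 of 15321 messenger RNA probes matched.

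Control spots and spots marked as outliers were left out, log2 processed signal was averaged over the spots of a probe, and the array's 75th percentile was subtracted. Probes well above background on at least 4 of 16 arrays were tested (17880 of 24684), and 0 spots were saturated. Arrays of a group on a slide were averaged, and limma 3.58.1 in R 4.3.3 fitted the 4 group means to 6 samples (2 residual degrees of freedom). Tests were two-sided, with Benjamini-Hochberg adjustment over all probes tested and a threshold of 0.05. Python 3.11.15 with pandas 2.3.3 read the arrays. The steps were tested on simulated data for depression-susceptible against control. There the 6-sample fit called 0 probes changed 1.5-fold and 0 changed 2-fold. The fit to 16 arrays called 80 and 94 of these, and 5 unchanged probes. How many probes were changed is not given here, so these counts are not shares. The number of arrays limits the precision.

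Members and gene lists were chosen with earlier results of these data known. Genes were named if they were among the largest changes called with both 6 samples and 16 arrays, the brightest of a complex, or isoform pairs; genes outside this rule were named after their values were seen. Sensitivity to scaling, filter, background, probe choice, slide and replicate is in the closing section. The median signal stood in for the mean signal in the normexp alternative.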

Additional observations from a re-analysis of the deposited data

Results flagged for a closer look

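In groups of 4 arrays, a lowest or highest array that lies far from the rest was looked for in 148 sets (complex medians and named members), and 9 were found; chance gives about 1 in 20. The part of any cause was not tested. Ndufa10 had 1 depression-susceptible array at 2.58, with a gap of 0.859 of the group's range. Atp5mc1 had 1 insusceptible array at 4.05, with a gap of 0.924 of the group's range. Ndufab1 had 1 control array at -4.34, with a gap of 0.931 of the group's range. Ndufab1 had 1 depression-susceptible array at -4.08, with a gap of 0.897 of the group's range. Ndufv2 had 1 insusceptible array at 4.41, with a gap of 0.847 of the group's range. Atp5mc2 had 1 control array at 5.12, with a gap of 0.863 of the group's range. Atp5f1a had 1 anxiety-susceptible array at 5.89, with a gap of 0.837 of the group's range. Atp5f1a had 1 insusceptible array at 5.61, with a gap of 0.841 of the group's range. Cox4i1 had 1 control array at 3.92, with a gap of 0.875 of the group's range.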

How the results depend on the processing

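Cox8b kept its call in all 3 groups under every setting run, and Ndufa7 kept it in anxiety-susceptible rats. Counts of members called in depression-susceptible, anxiety-susceptible and insusceptible rats against control, and then in depression-susceptible against insusceptible, anxiety-susceptible against insusceptible, and depression-susceptible against anxiety-susceptible rats, were 5, 25, 20, 0, 0 and 0. They were 69, 59, 60, 38, 11 and 37 with 16 arrays as separate samples. Scaling to the array median gave 6, 42, 42, 0, 0 and 0, quantile normalization 1, 18, 21, 3, 0 and 7, the same with 16 arrays (added after seeing the data) 36, 54, 56, 50, 18 and 48, and the deposited values 1, 17, 16, 0, 0 and 6. No filter gave 1, 4, 19, 3, 0 and 0, probes detected on all 16 arrays 9, 32, 28, 0, 0 and 3, the mean of all probes 8, 29, 27, 0, 0 and 3, and normexp 5, 39, 40, 9, 0 and 6. Normexp failed on 1 control and 1 insusceptible array, which were left out there, a choice made after seeing the data. Slide as a block gave 55 in depression-susceptible rats. The cause of these changes was not tested. For the array median, the deposited values, no filter, detection on all 16 arrays, the probe mean and normexp, no share of all genes is given. The same holds for the replicate block and for leaving out 1 sample. These counts therefore cannot be set against all genes and are not read as particular to the members.

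Member medians in the same order moved to -0.52, -0.70, -0.71, 0.19, 0.06 and 0.13 with the array median, which shifts every gene alike (by -0.12, -0.24 and -0.29 against control), and under quantile normalization to -0.12, -0.065 and -0.011 against control, with -0.076 and -0.07 for depression-susceptible against insusceptible and anxiety-susceptible rats, a turned direction. The deposited table gave -0.11, -0.061, -0.008, -0.074 and -0.093 for the same. Leaving out 1 sample gave 1 to 2, 3 to 4, 2 to 5, and 0 to 0 in the last 3 counts, and medians of -0.48 to -0.29, -0.53 to -0.38, -0.54 to -0.34, -0.016 to 0.12, 0.004 to 0.004 and -0.049 to 0.10.

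Replicate numbers did not pair the arrays: same-numbered arrays had correlations of -0.556 to 0.133 and same-slide arrays 0.38 to 0.533. With the replicate block the counts were 67, 59, 58, 37, 7 and 32.

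Some named members changed sign against control. Under quantile normalization, with 6 samples and 16 arrays alike, the values were in depression-susceptible rats Ndufs7 0.033, Atp5f1a 0.12, Cycs 0.033, Uqcr11 0.033, Uqcrh 0.056 and in anxiety-susceptible rats Cycs 0.051, Sdhd 0.13, Uqcr11 0.042, Cox7a2l 0.42, Atp5if1 0.20 and in insusceptible rats Atp5f1a 0.32, Cycs 0.12, Sdhd 0.25, Cox4i1 0.081, Cox6a2 -0.23, Cox7a2l 0.39, Atp5if1 0.16. The deposited table gave in depression-susceptible rats Ndufs7 0.038, Atp5f1b 0.003, Atp5f1a 0.12, Cycs 0.035, Uqcr11 0.035, Uqcrh 0.056 and in anxiety-susceptible rats Cycs 0.045, Sdhd 0.12, Uqcr11 0.039, Cox7a2l 0.41, Atp5if1 0.20 and in insusceptible rats Atp5f1b 0.001, Atp5f1a 0.32, Cycs 0.12, Sdhd 0.24, Cox4i1 0.082, Cox6a2 -0.19, Cox7a2l 0.38, Atp5if1 0.16. Scaling to the array median gave in anxiety-susceptible rats Atp5f1a -0.22, Uqcrh -0.17 and in insusceptible rats Ndufa10 -0.24, Uqcrh -0.20, Cox6a2 -0.20. Normexp gave in anxiety-susceptible rats Cox6a2 0.36 and in insusceptible rats Ndufa10 -0.041. With 1 sample left out, values ranged from -0.34 to 0.01 (Cox6b1, depression-susceptible), -0.27 to 0.083 (Cox6b1, anxiety-susceptible), -0.18 to 0.018 (Cox7a2l, anxiety-susceptible), -0.14 to 0.17 (Atp5f1a, anxiety-susceptible), -0.17 to 0.30 (Uqcrh, anxiety-susceptible), -0.16 to 0.063 (Ndufa7, insusceptible) and -0.14 to 0.33 (Uqcrh, insusceptible).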
